A study of Mus musculus with 12 samples.

Results

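The hypoxia response of triCH1 mouse embryonic fibroblasts was measured in 3 lines, each with 1 array in hypoxia and 1 array in normoxia. These are 6 of the 12 arrays of the series, taken by their titles (triCH1flox1, triCH1flox2_1 and triCH1flox2_2), and the arrays of a line were paired by the line's name. Mouse embryonic fibroblasts are primary connective tissue cells grown out of embryos, here e14.5 embryos. In a triCH1 line, 3 of the 4 alleles of Crebbp (which encodes CBP) and Ep300 (which encodes p300) lacked the CH1 domain, and the last allele was a conditional knockout (floxed) allele. That allele was Crebbp in triCH1flox1 and Ep300 in triCH1flox2_1 and triCH1flox2_2. The hypoxia cultures were held for 6 h at 0.1% O2 and the normoxia cultures for 6 h at 21% O2, both at 37 °C with 5% CO2, in fresh medium brought to the same oxygen level beforehand. The other 6 arrays come from 3 control lines under the same conditions, and each control line had 1 floxed allele, of Crebbp in flox1 and of Ep300 in flox2_1 and flox2_2. All 6 lines had received an adenovirus carrying Cre recombinase at passage 3 and had then grown at least 100-fold, so the controls share the viral treatment. The labels do not say how many embryos gave each line, nor how completely the floxed alleles recombined. P-values therefore measure a spread between cultured lines, estimated jointly from the 3 lines of each type.

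CBP and p300 are large coactivators that acetylate histones and are recruited to genes by many transcription factors. Their CH1 domain, a zinc-binding fold, holds the C-terminal activation domain of the hypoxia-inducible factors HIF-1α and HIF-2α. When oxygen is plentiful, prolyl hydroxylases (the EGLN enzymes) mark the HIF-α subunits for destruction through the VHL protein. A further hydroxylase, encoded by Hif1an, modifies the C-terminal activation domain and keeps it from the CH1 domain. When oxygen is scarce these enzymes slow down, HIF-α accumulates, pairs with ARNT and binds short DNA elements with the core ACGTG or GCGTG. In fibroblasts the best known targets are genes of glucose uptake, glycolysis, mitochondrial restraint, glycogen storage, blood vessel growth and the EGLN enzymes themselves. The comparison asks which of these responses were present in cells that kept at most 1 gene copy with a CH1 domain.

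Signals are the authors' scaled array intensities, with medians of 57.2 to 76.1 over the 6 triCH1 arrays and a scanner noise of 11.2 to 13.8 in the same units. Changes are differences of log2(signal + 20) between hypoxia and normoxia, which understate the change of dim genes, and errors beside them are limma standard errors. A change is called here when limma's two-sided test gave an adjusted p under 0.05 after Benjamini-Hochberg correction over 18903 probe sets, those whose signal averaged at least 100. The targeted genes do not separate by oxygen. Crebbp (1435224_at) had 882, 1755 and 922 in hypoxia, against 699, 1852 and 1277 in normoxia, in the order triCH1flox1, triCH1flox2_1 and triCH1flox2_2, which is kept for all triples of triCH1 values. Ep300 (1434765_at) had 836, 255 and 231 in hypoxia, against 474, 539.5 and 353 in normoxia. Their changes, −0.07 ± 0.17 and −0.27 ± 0.27, were not called (adjusted p = 0.919 and 0.766), the arrays of the 2 oxygen levels overlap, and probe sets of this kind cannot tell alleles with and without CH1 apart. All 12 fibroblast markers had mean signals of at least 100, with a summed signal of 123862.6 to 168662.7 in hypoxia and 139626.0 to 154391.2 in normoxia. The lines differed, and Pdgfra lay under 100 in triCH1flox1, at 87.1 in hypoxia and 75.2 in normoxia. Of 10 markers each, 2 of endothelium, 2 of skeletal muscle and 5 of neural cells had means of at least 100 in hypoxia. Those of endothelium were Eng and Esam, and the list summed to 710.5 to 795.7 in hypoxia and 590.0 to 827.7 in normoxia. Those of skeletal muscle were Acta1 and Des, with sums of 10478.3 to 13911.9 in hypoxia and 8164.0 to 14097.5 in normoxia, nearly all of it Acta1 (7853.1 to 13256.9 over the 6 arrays). For neural cells these were Nes, Map2, Sox2, Stmn2 and Ncam1, with summed signals of 4507.8 to 7662.9 in hypoxia and 4673.8 to 7679.7 in normoxia. Of 8 markers each found on the array, 3 of cartilage and bone and 2 of adipocytes had means of at least 100 in hypoxia. The brightest of these was the adipocyte marker Fabp4, at 473.8 to 1558.1 over the 6 arrays.

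In the triCH1 lines 6 h at 0.1% O2 raised many genes and lowered few by the adjusted test. Higher in hypoxia were 177 probe sets of 117 genes (5 probe sets had no single symbol), and lower were 12 probe sets of 10 genes (1 had none). These are 0.936% and 0.0635% of the probe sets tested. The imbalance was in the adjusted calls and not in the unadjusted p-values, where 1010 probe sets were higher and 962 lower at p under 0.05, with 945 expected by chance in both directions together. The higher group held 1 probe set above 16-fold, 4 between 8- and 16-fold, 30 between 4- and 8-fold, 95 between 2- and 4-fold and 47 below 2-fold. Only 2 of the 12 lower probe sets reached 2-fold. All 177 were higher and all 12 were lower in each of the 3 lines, which a choice by the test on these same responses favours. In 167 of the higher and 9 of the lower probe sets the 3 hypoxia arrays did not overlap the 3 normoxia arrays, against 5.64% higher and 6.21% lower over all tested probe sets. Without any 1 of the triCH1 lines 102 to 119 probe sets were called higher and 2 to 4 lower. Without control line flox2_2, which shares the estimate of the spread, 338 were called higher and 90 lower, without flox2_1 224 and 28, and without flox1 162 and 5.

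The mitophagy receptor gene Bnip3 led the response. Bnip3 (1422470_at) had 13019, 12324 and 14427 in hypoxia, against 670.4, 709 and 486 in normoxia, a 20.9-fold change (4.39 ± 0.17 on the log2 scale, adjusted p = 7.62e-09). The lowest hypoxia array was thus far above the highest normoxia array, and the 3 lines were close to each other at both oxygen levels. Pdk1 (1423747_a_at), whose product phosphorylates pyruvate dehydrogenase and so holds pyruvate back from the citrate cycle, had 2739, 2296 and 3199.7 in hypoxia, against 215, 232 and 372 in normoxia (change 3.26 ± 0.18, adjusted p = 2.79e-07). Smtnl2 (1455794_at), a smoothelin-like gene, had 475, 281 and 192 in hypoxia, against 6.7, 7.0 and 8.1 in normoxia. Its normoxia signals lie under the scanner noise, so its change of 3.54 ± 0.38 (adjusted p = 9.74e-05) depends on the pseudocount. Vldlr (1435893_at), the receptor for very-low-density lipoprotein, rose by 3.16 ± 0.41 with signals of 369, 510.2 and 501 in hypoxia, against 36.3, 64.6 and 11.7 in normoxia. With a pseudocount of 1 or 100 this change was 3.86 or 2.03. The 4 other tested Vldlr probe sets were called too, at smaller changes of 1.78 to 2.77, with 2.57 for the brightest (1434465_x_at). Stc2 (1449484_at), a secreted glycoprotein gene, had 1108, 1224 and 803 in hypoxia, against 87.6, 220.0 and 110.3 in normoxia and rose by 2.81 ± 0.21 (adjusted p = 3.66e-06). Its 2 other tested probe sets were called too, at smaller changes of 1.40 (1419503_at) and 1.97 (1445186_at). Ankrd37 (1436538_at), which encodes a small ankyrin-repeat protein, had 1703, 904 and 1231 in hypoxia, against 316, 147 and 89.3 in normoxia (change 2.78 ± 0.20). By the naming rule none of these genes had overlapping hypoxia and normoxia arrays.

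**Figure D1:**
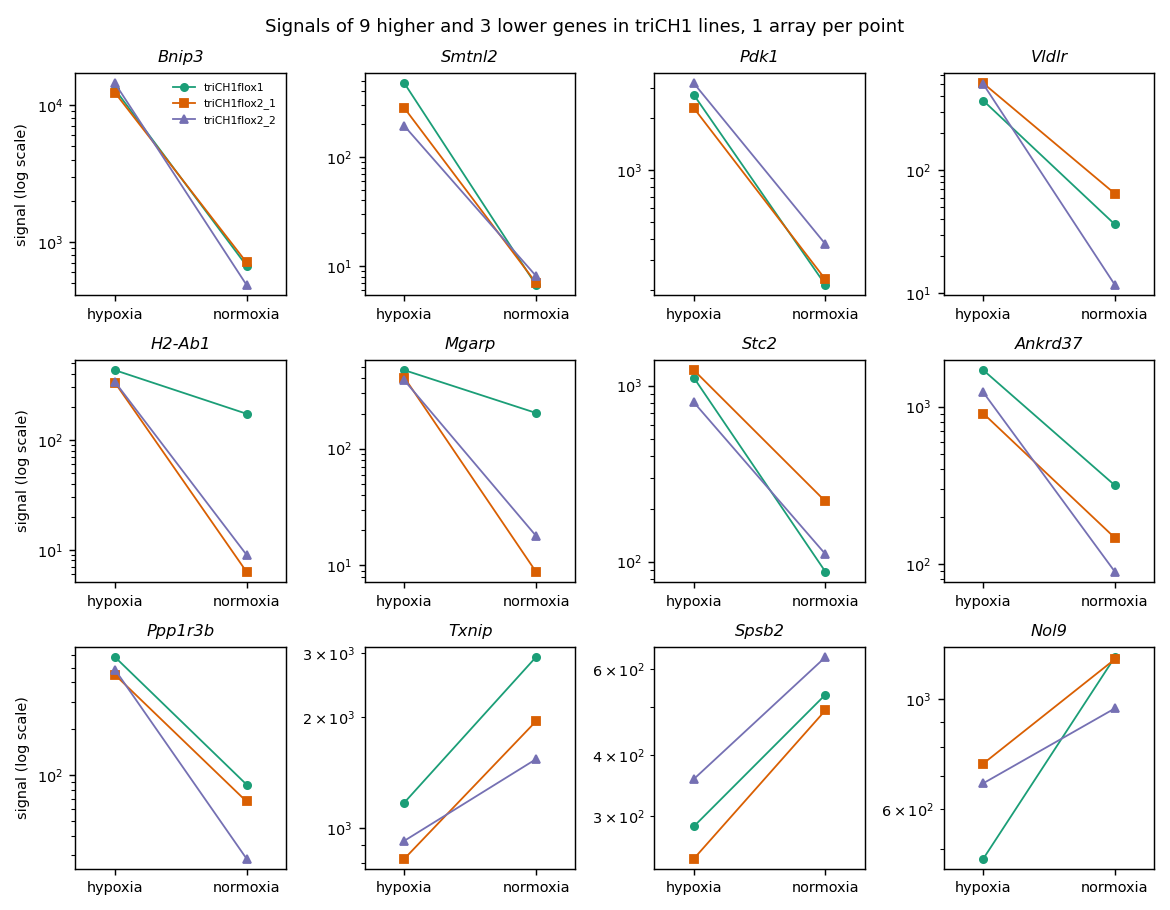
Signals (log axis) of the 9 genes with the highest and the 3 with the lowest change in triCH1 lines among called genes whose hypoxia and normoxia arrays did not overlap, hypoxia left and normoxia right; each point is 1 array and each line joins the arrays of 1 fibroblast line. By this choice the 3 hypoxia arrays lie on 1 side of the 3 normoxia arrays in all panels, and triCH1flox1 stands apart in normoxia for the probe sets shown of H2-Ab1 and Mgarp.

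The sequence before the start of 4 of these strongly higher genes is shown because the HIF-binding core lies in it. A match was thus a condition of the choice. Smtnl2, Vldlr and H2-Ab1, which changed more than Stc2, are not shown. Each is the 250 bases upstream of the gene's first annotated start in RefSeq (build GRCm38.p6), on the gene's own strand, 5′ to 3′. Capitals mark ACGTG or GCGTG on either strand, so that CACGT and CACGC are marked too, and the letters CACGTG hold a match on each strand. Bnip3 lies at chr7:138909507-138909756 (minus strand) with 5 matches, Pdk1 at chr2:71872974-71873223 (plus strand) with 1, Mgarp at chr3:51396548-51396797 (minus strand) with 1 and Stc2 at chr11:31370062-31370311 (minus strand) with 2.
Bnip3: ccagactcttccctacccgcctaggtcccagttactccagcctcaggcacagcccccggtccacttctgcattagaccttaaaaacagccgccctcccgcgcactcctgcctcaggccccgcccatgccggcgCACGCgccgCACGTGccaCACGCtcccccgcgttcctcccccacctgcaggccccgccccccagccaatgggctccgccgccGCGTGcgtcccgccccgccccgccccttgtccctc
Pdk1: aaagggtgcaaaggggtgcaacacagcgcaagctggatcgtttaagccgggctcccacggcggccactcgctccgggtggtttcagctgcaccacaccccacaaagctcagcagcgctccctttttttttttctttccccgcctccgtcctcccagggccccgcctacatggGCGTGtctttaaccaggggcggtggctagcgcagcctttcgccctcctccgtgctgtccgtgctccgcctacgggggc
Mgarp: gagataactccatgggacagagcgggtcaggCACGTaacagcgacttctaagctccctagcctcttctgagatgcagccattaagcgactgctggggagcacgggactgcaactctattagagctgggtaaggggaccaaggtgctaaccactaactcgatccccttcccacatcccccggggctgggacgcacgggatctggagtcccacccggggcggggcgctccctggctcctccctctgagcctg
Stc2: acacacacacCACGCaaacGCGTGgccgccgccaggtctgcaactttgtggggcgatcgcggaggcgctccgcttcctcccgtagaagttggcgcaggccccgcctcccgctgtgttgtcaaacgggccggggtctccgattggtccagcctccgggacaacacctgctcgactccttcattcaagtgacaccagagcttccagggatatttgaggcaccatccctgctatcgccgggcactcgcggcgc
In Bnip3 the matches begin 117, 108, 107, 99 and 35 bases before the start, and in Pdk1 the match begins 78 bases before it. Those of Mgarp and Stc2 are farther away, at 219 bases and at 240 and 231 bases. Over the 97 genes called higher that have an entry in the promoter table, 65 (67.0%) had a match in this window, as did 18 of 24 (75.0%) among the 30 genes named here as highest. The share was 59.1% (4857 of 8223) over all tested genes. For ACGTG alone the shares were 36.1% of genes called higher and 22.9% of tested genes. The motif is thus present before the start of most tested genes, and a match is a description of the letters and not of binding.

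Genes of glucose uptake and glycolysis formed the group with the highest median among the 26 groups examined. Of 17 tested members 13 were called higher and 0 lower, with a median change of 0.95, against 1.05% called higher and a median of −0.03 over the 10059 tested genes. Among the transporters, the highest changes were those of Slc16a3 and Slc2a3. Slc16a3 (1449005_at), which carries lactate out of the cell, had 2974, 1896 and 1855 in hypoxia, against 375, 290.1 and 491 in normoxia (change 2.47 ± 0.21, adjusted p = 1.02e-05). Slc2a3 (1437052_s_at), a high-affinity glucose transporter, had 776, 476 and 397 in hypoxia, against 163, 63.8 and 96.1 in normoxia (change 2.18 ± 0.23). Slc2a1 (1434773_a_at), the main fibroblast glucose transporter, was bright already in normoxia and reached 23521, 15331 and 17229.6 in hypoxia, against 8804, 5717 and 7546 in normoxia (change 1.34 ± 0.10, adjusted p = 3.66e-06).

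The enzymes of the pathway rose by different amounts. Pfkfb3 (1416432_at), which makes the activator of phosphofructokinase, had 1278, 922 and 902 in hypoxia, against 318, 179 and 185 in normoxia and rose by 2.12 ± 0.16. Its other tested probe set (1456676_a_at) rose by 1.06 and was not called. The phosphofructokinase genes Pfkl (1439148_a_at) and Pfkp (1416069_at) rose by 1.78 ± 0.15 and 1.49 ± 0.14, and the hexokinase gene Hk2 (1422612_at) by 1.37 ± 0.14 (adjusted p = 1.39e-05, 3.17e-05 and 8.88e-05). Pfkl had 9325, 7483 and 7453 in hypoxia, against 2458, 1935 and 2648 in normoxia. Of the later enzymes, named after their values were seen, Tpi1 (1415918_a_at), Pgk1 (1417864_at) and Ldha (1419737_a_at) rose by 0.87 ± 0.10, 0.59 ± 0.10 and 0.50 ± 0.10. Ldha, which encodes the enzyme that turns pyruvate into lactate, had 28217, 28062 and 31734 in hypoxia, against 21614, 19640.4 and 20849 in normoxia (adjusted p = 0.0304). It was bright at both oxygen levels, and its change was the smallest called in the group. Hk1 (1437974_a_at), the other widely expressed hexokinase, rose by 0.95 ± 0.16 and was named in the same way. In the control lines 14 of the 17 genes were called higher, where 1.42% of all tested genes were. Ldha was not called without any 1 of the triCH1 lines or without control line flox1, Pgk1 without triCH1flox2_1 or triCH1flox2_2, and Hk1 without triCH1flox1 or triCH1flox2_1.

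In the group of genes that control pyruvate dehydrogenase, 1 gene was called at the RNA level. Of 10 tested members only Pdk1 was called (group median 0.16), where 1.05% of all tested genes were called higher. Its paralogs Pdk3 (1426410_at) and Pdk4 (1417273_at) changed by 0.22 ± 0.14 and 0.25 ± 0.30 (adjusted p = 0.617 and 0.807). Pdk4 had 291, 102 and 129 in hypoxia, against 352, 34.6 and 144 in normoxia. Its arrays overlap, and it was higher in hypoxia in triCH1flox2_1 alone. Pdha1 (1418560_at), the catalytic subunit that the kinases act on, had 4366, 5733 and 5551 in hypoxia, against 3725, 5167 and 3953 in normoxia (change 0.29 ± 0.14, adjusted p = 0.495).

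Mitochondrial adaptation was the group with the next highest median, 0.89. Where 1.05% of all tested genes were called higher, 6 of its 13 tested members were, and 0 were called lower. Besides Bnip3 these were Ak4, Higd1a, Fam162a, Mgarp and Lonp1. Ak4 (1450387_s_at), an adenylate kinase of the mitochondrial matrix, had 3282, 3404 and 3461 in hypoxia, against 497, 706 and 425 in normoxia (change 2.63 ± 0.17, adjusted p = 1.31e-06). Higd1a (1416481_s_at), which encodes a small inner membrane protein that binds respiratory complexes, had 1138, 1792 and 1304 in hypoxia, against 258, 336 and 268 in normoxia (change 2.20 ± 0.17). Its brightest probe set (1416480_a_at) rose by 1.38 ± 0.11. Fam162a (1451385_at), a mitochondrial protein gene, was among the brightest of the called genes with 12186, 13056 and 15241 in hypoxia, against 6139.8, 4921 and 4677 in normoxia (change 1.36 ± 0.13). Lonp1 (1428365_a_at), the matrix protease, rose by 0.89 ± 0.19 at the edge of the threshold (adjusted p = 0.0464). The 38 tested subunits of the respiratory chain held no called gene, and their median was −0.03. With 1.05% of all tested genes called higher, no call in a list of this size does not set it apart. Lonp1 lost its call when any 1 of the triCH1 lines or control line flox1 was left out.

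In Mgarp and H2-Ab1, called genes of the highest 30, 1 line stood apart in normoxia on the probe set named. Mgarp (1420774_a_at), whose product serves mitochondrial transport and shape, had 471, 406 and 385 in hypoxia, against 202, 8.8 and 17.9 in normoxia. H2-Ab1 (1450648_s_at), an MHC class II chain that antigen-presenting cells use, had 431, 331 and 336 in hypoxia, against 173, 6.3 and 9.0 in normoxia. In both of these probe sets, triCH1flox1 had clear signal in normoxia while the other lines were at or near the noise. Its own change was thus 1.14 for Mgarp and 1.22 for H2-Ab1, against more than 3.4 in each other line. Over the 3 lines the changes were 2.81 ± 0.42 and 2.86 ± 0.47 (adjusted p = 0.00239 and 0.00549). Without triCH1flox2_2 neither was called (adjusted p = 0.109 and 0.173). The other H2-Ab1 probe sets, below the signal filter and not tested, had 126.8, 116.8 and 63.5 (1425477_x_at) and 310.4, 106.1 and 86.5 (1451721_a_at) in hypoxia. In normoxia they had 9.0, 25.6 and 11.2, and 25.9, 28.1 and 14.3, so all 3 probe sets were higher in hypoxia in all 3 lines. On these other probe sets triCH1flox1 did not stand apart in normoxia, so for H2-Ab1 that line difference rests on 1450648_s_at alone. The 10 macrophage markers, from a cell type that expresses this gene, summed to 514.4 to 596.6 in hypoxia and 598.0 to 777.8 in normoxia, and 2 of them averaged at least 100 in hypoxia and 3 in normoxia. Csf1r was the brightest at 154.3 to 327.1 over the 6 arrays, and Ptprc lay between 2.5 and 31.9.

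Genes of both glycogen synthesis and glycogen breakdown were among those called higher. Of 15 tested members 5 were called higher and 0 lower (median 0.51), against 1.05% and 0.0795% of all tested genes. Ppp1r3b (1436590_at) and Ppp1r3c (1433691_at), which bring protein phosphatase 1 to glycogen and favour its synthesis, rose by 2.77 ± 0.24 and 2.39 ± 0.35. Ppp1r3b had 586, 449 and 485 in hypoxia, against 86.4, 67.0 and 28.4 in normoxia, while Ppp1r3c was dim with 93.0, 227 and 144 in hypoxia, against 2.7, 27.3 and 9.9 in normoxia. Glycogen synthase, Gys1 (1416737_at), had 2113, 1698 and 1462 in hypoxia, against 707, 561 and 534 in normoxia and rose by 1.51 ± 0.15 (adjusted p = 5.85e-05). Phosphorylase, Pygl (1417741_at), which breaks glycogen down, had 804, 780.4 and 556 in hypoxia, against 364, 214 and 134 in normoxia and rose by 1.59 ± 0.21 (adjusted p = 0.000669). Pgm1 (1451149_at), which links glucose-1-phosphate to glucose-6-phosphate and serves both directions, rose by 1.37 ± 0.15. Stbd1 (1434442_at), a glycogen-binding protein gene, was not called (0.61 ± 0.17, adjusted p = 0.144). Without control line flox2_2 Stbd1 was called as well.

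**Figure D2:**
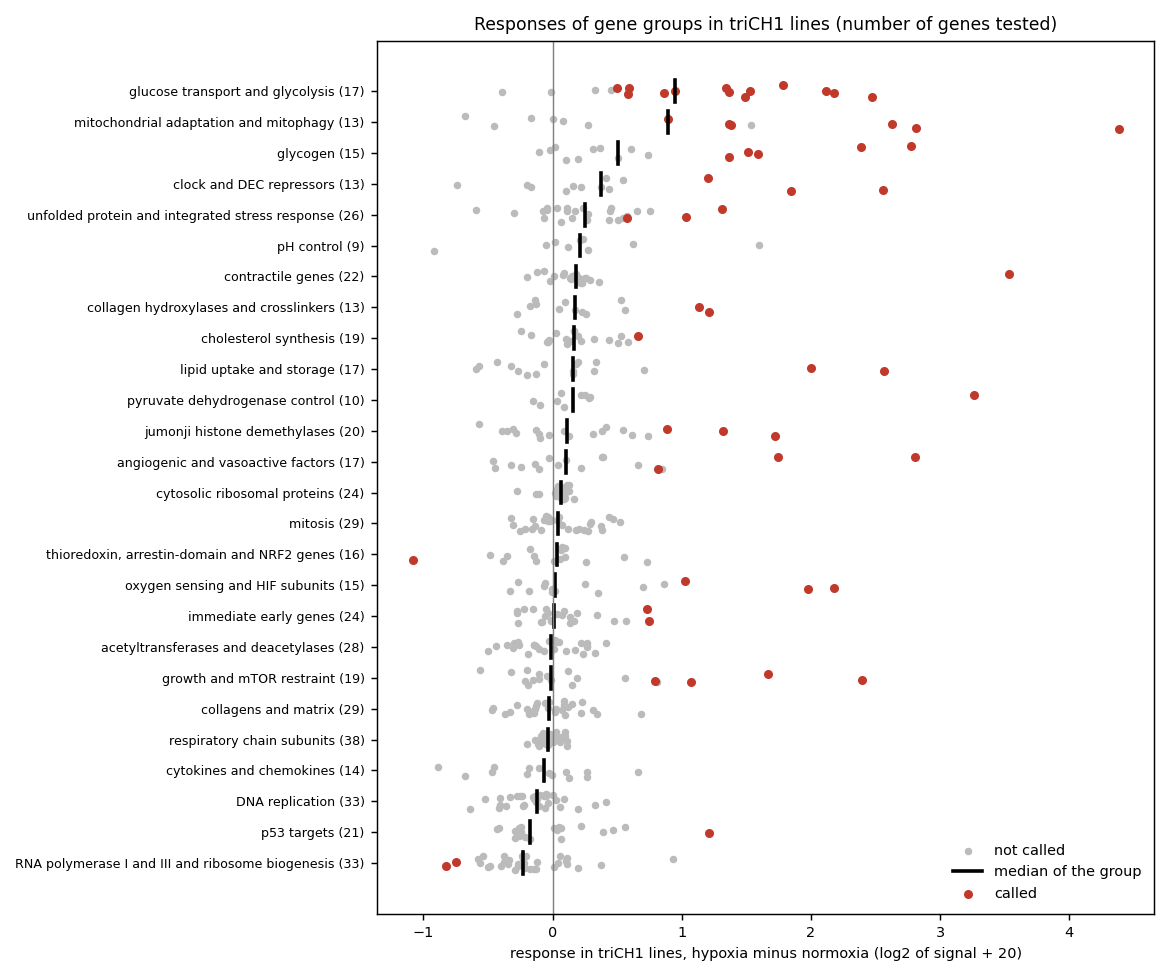
Responses in triCH1 lines (log2 of signal + 20, hypoxia minus normoxia) of the tested members of 26 gene groups, with the number tested in brackets; each point is 1 gene, red where called, and the bar is the group's median. Red points sit mostly at the right in metabolic groups. Respiratory chain, ribosomal protein and cell cycle genes crowd around 0 with no called gene, where 1.05% of all tested genes were called higher.

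In the oxygen-sensing machinery the calls were on genes whose products limit HIF-α, and no HIF subunit was called. Of 15 tested members 3 were called higher and 0 lower (median 0.02), against 1.05% and 0.0795% of all tested genes. Egln3 (1418649_at), a prolyl hydroxylase of HIF-α, had 1780.1, 1028 and 1264 in hypoxia, against 401, 185 and 284 in normoxia (change 2.18 ± 0.15, adjusted p = 3.22e-06). Its other tested probe set (1418648_at) was called too, at a smaller change of 1.56. Egln1 (1451110_at), the main prolyl hydroxylase in most cells, had 3666, 3397 and 2875 in hypoxia, against 749.8, 888 and 747 in normoxia (change 2.03 ± 0.16). Vhl (1434708_at), the recognition subunit that sends hydroxylated HIF-α to the proteasome, had 1417, 990.0 and 1049 in hypoxia, against 729, 559 and 405 in normoxia (change 1.02 ± 0.17, adjusted p = 0.00644). Hif1a itself (1427418_a_at) had 4899, 4619 and 6017 in hypoxia, against 3198, 4504 and 4572 in normoxia, and its change of 0.35 ± 0.17 was not called (adjusted p = 0.49). Siah2 (1448170_at), a ubiquitin ligase that acts on the EGLN enzymes, had 0.86 ± 0.23 and was not called (adjusted p = 0.131). Without triCH1flox2_2 or without the pairing of arrays by line Vhl was not called. Siah2 was called without control line flox2_2.

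Secreted and vasoactive factors answered unevenly. Of 17 tested members 3 were called higher and 0 lower (median 0.11), against 1.05% and 0.0795% of all tested genes. Besides Stc2 these were Stc1 (1450448_at), its paralog, with 494, 414 and 311 in hypoxia, against 108, 131 and 81.7 in normoxia (change 1.74 ± 0.22, adjusted p = 0.000419), and Vegfa. Vegfa (1420909_at), the main growth factor of blood vessels, had 2645, 1377 and 1807 in hypoxia, against 1791, 647 and 1016 in normoxia. The lines differed so much in level that the arrays overlap, and triCH1flox1 in normoxia lay above triCH1flox2_1 in hypoxia, while within each line hypoxia was higher. Its change of 0.81 ± 0.15 was called (adjusted p = 0.0161), but not without triCH1flox2_1 or without triCH1flox2_2, nor without the pairing of arrays by line or the variance trend. Adm (1416077_at), which encodes the vasodilator peptide adrenomedullin, was bright and nearly level with 7819, 9366 and 7750.3 in hypoxia, against 6296, 8125 and 7038 in normoxia (change 0.22 ± 0.11, adjusted p = 0.517). Apln (1451038_at), the apelin gene, had 803, 2469.6 and 1390.1 in hypoxia, against 417, 1602 and 1007 in normoxia (change 0.66 ± 0.17, adjusted p = 0.121), with lines that differ more than the oxygen levels. Angptl4 (1417130_s_at), a lipase inhibitor gene known as a HIF target, was lower in each line but not called (−0.46 ± 0.17, adjusted p = 0.365). Pgf (1418471_at), a relative of Vegfa named after its values were seen, had 145, 9.0 and 37.1 in hypoxia, against 11.8, 23.5 and 14.0 in normoxia and was not called (0.85 ± 0.49, adjusted p = 0.581). Without control line flox2_2 Apln was called.

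Among the jumonji histone demethylases, oxygen-dependent enzymes that remove methyl groups from histones, 3 of 20 tested were called higher and 0 lower (median 0.11). The shares over all tested genes were 1.05% and 0.0795%. Kdm3a (1426810_at), which acts on histone H3 lysine 9, had 1697, 1715 and 1665 in hypoxia, against 440.4, 533 and 526 in normoxia (change 1.72 ± 0.18, adjusted p = 6.46e-05). Its hypoxia signals were nearly the same in the 3 lines. Kdm4b (1424044_at), which acts on the same residue, rose by 1.32 ± 0.24 (adjusted p = 0.014), and Jmjd6 (1454109_a_at), a jumonji protein with lysyl hydroxylase activity, by 0.89 ± 0.14 (adjusted p = 0.00476). Kdm5b, Kdm5a and Kdm7a had 0.41 ± 0.14, 0.62 ± 0.26 and 0.74 ± 0.37 and were not called. The 28 tested acetyltransferases and deacetylases, the class to which Crebbp and Ep300 belong, held 0 called genes (median −0.01). At the share over all tested genes this does not set a list of their size apart. Kdm4b was not called without triCH1flox1 or triCH1flox2_1, and Jmjd6 without triCH1flox2_1 or triCH1flox2_2.

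Among the enzymes that modify collagen, calls were made on P4ha2 and Plod2. Of 13 tested hydroxylases and crosslinkers 2 were called higher and 0 lower (median 0.17), against 1.05% and 0.0795% of all tested genes. P4ha2 (1417149_at), a catalytic subunit of collagen prolyl hydroxylase, had 5385, 4871 and 3539 in hypoxia, against 2245, 2111 and 1836 in normoxia (change 1.13 ± 0.13, adjusted p = 0.000178). Plod2 (1416687_at), the lysyl hydroxylase that prepares collagen ends for crosslinking, had 4116, 2909 and 3107 in hypoxia, against 1636, 1288 and 1380.0 in normoxia (change 1.21 ± 0.20, adjusted p = 0.00644). P4ha1 (1452094_at), the other main catalytic subunit, missed the threshold (0.56 ± 0.13, adjusted p = 0.0698), although its arrays did not overlap. Lox (1416121_at), lysyl oxidase, had 28132, 28640.5 and 26336 in hypoxia, against 22927, 24136 and 23941 in normoxia (change 0.23 ± 0.08, adjusted p = 0.359). Of 29 tested collagens and other matrix genes 0 were called, with a median of −0.03. At the share over all tested genes this does not set a list of their size apart. Plod2 was not called without triCH1flox1 or triCH1flox2_2. P4ha1 was called without control line flox2_1 or flox2_2.

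In the clock group 3 of 13 tested members were called higher and 0 lower (median 0.38), against 1.05% and 0.0795% of all tested genes. Ciart (1435188_at), a repressor of the CLOCK and BMAL1 pair, had 675, 479 and 705 in hypoxia, against 102, 80.4 and 80.9 in normoxia (change 2.55 ± 0.22, adjusted p = 1.02e-05). Rora (1455165_at), a nuclear receptor that activates Bmal1, had 296, 242 and 134 in hypoxia, against 33.8, 14.9 and 11.1 in normoxia (change 2.59 ± 0.37), dim in normoxia. Its 4 other tested probe sets rose by 1.29 to 1.85, and 2 of them were called. Bhlhe40 (1418025_at), the repressor DEC1, had 5324, 3229 and 3404 in hypoxia, against 2575, 1169 and 1561 in normoxia (change 1.20 ± 0.14, adjusted p = 0.000261). It was higher in hypoxia in each line by a similar factor, and triCH1flox1 was the highest line at both oxygen levels. Nfil3 (1418932_at) had 0.55 ± 0.15 and was not called (adjusted p = 0.158). Without the pairing by line Bhlhe40 missed the threshold. Nfil3 was called without control line flox2_2.

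Genes that restrain growth were called higher in 4 of 19 cases and lower in 0 (median −0.01), against 1.05% and 0.0795% of all tested genes. Ndrg1 (1456174_x_at), a stress-responsive gene of differentiation, had 3407, 3173 and 2808 in hypoxia, against 507, 669 and 562 in normoxia (change 2.40 ± 0.15, adjusted p = 1.27e-06), and its 4 other tested probe sets were called higher as well. Mxi1 (1450376_at), an antagonist of MYC, had 1455, 1207 and 963 in hypoxia, against 308, 344 and 441 in normoxia (change 1.67 ± 0.21). Ddit4 (1428306_at), which encodes the mTORC1 inhibitor REDD1, had 3788, 1941 and 2687 in hypoxia, against 1956, 839 and 1269 in normoxia (change 1.07 ± 0.14, adjusted p = 0.000669). Its arrays overlap by 1 pair, because triCH1flox1 in normoxia was slightly above triCH1flox2_1 in hypoxia. Ier3 (1419647_a_at), an early response gene that protects cells from apoptosis, rose by 0.80 ± 0.10 (adjusted p = 0.00072). Outside that group, Ccng2 (1416488_at), an unconventional cyclin that slows the cell cycle, had 3276, 2379 and 2317 in hypoxia, against 852, 491 and 478 in normoxia (change 2.13 ± 0.14, adjusted p = 2.85e-06), and Rgcc (1438511_a_at), a cell cycle regulator gene, was dim with 97.2, 207 and 219 in hypoxia, against 2.1, 0.5 and 45.7 in normoxia. Ndrg2 (1448154_at), a relative of Ndrg1, had 516, 497 and 533 in hypoxia, against 73.1, 75.1 and 92.3 in normoxia (change 2.42 ± 0.24). Ddit4 was not called without the pairing by line.

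In lipid handling 2 of 17 tested genes were called, both higher (median 0.16), where 1.05% of all tested genes were called higher. They were Vldlr, described above, and Hilpda (1421031_a_at), which encodes a lipid droplet protein that blocks triglyceride lipase. Hilpda had 1668, 1489 and 1251 in hypoxia, against 359, 348 and 343 in normoxia (change 2.00 ± 0.16, adjusted p = 5.22e-06), and its 3 normoxia arrays were nearly equal. Pnpla2 (1428143_a_at), the lipase that this protein blocks, had 379, 242 and 275 in hypoxia, against 592, 381 and 409.6 in normoxia and was not called (−0.59 ± 0.18, adjusted p = 0.2). Of 19 tested genes of cholesterol synthesis and its control 1 was called, Hmgcs1 (1433445_x_at) at 0.66 ± 0.14 (adjusted p = 0.0383). Hmgcs1 lost its call when any 1 of the triCH1 lines or control line flox1 was left out.

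Calls were made in 3 groups of stress genes, where 1.05% of all tested genes were called higher. In the unfolded protein and integrated stress response group 3 of 26 tested genes were called higher and 0 lower (median 0.25). Ero1a (1419029_at), the oxidase that drives disulfide formation with oxygen as acceptor, had 4957, 4310.1 and 3286 in hypoxia, against 1935, 1628 and 1417 in normoxia (change 1.31 ± 0.13, adjusted p = 5.24e-05). Chac1 (1451382_at), a glutathione-degrading enzyme induced by ATF4, had 2142, 2331 and 1936 in hypoxia, against 1265, 829 and 1046 in normoxia (change 1.03 ± 0.18, adjusted p = 0.00827). Nupr1 (1419665_a_at) rose by 0.57 ± 0.12 (adjusted p = 0.0389). Ddit3, Ppp1r15a and Mthfd2, further targets of the same pathway, had 0.75 ± 0.19, 0.66 ± 0.16 and 0.58 ± 0.14 and missed the threshold (adjusted p = 0.0912, 0.0741 and 0.0818). Of 24 immediate early genes 2 were called higher, Egr2 (0.74 ± 0.15) and Maff (0.73 ± 0.15). Of 21 p53 targets 1 was called higher, Gadd45a (1449519_at), with 408, 571 and 338 in hypoxia, against 157, 202 and 165 in normoxia (change 1.21 ± 0.22, adjusted p = 0.0101). The 9 genes of pH control gave no call, and Car9 (1427013_at), the cell-surface carbonic anhydrase widely used as a hypoxia marker, had 86.5, 430.3 and 172 in hypoxia, against 48.5, 75.4 and 31.0 in normoxia (change 1.60 ± 0.37, adjusted p = 0.069). Its arrays did not overlap, but the lines differed widely in hypoxia. Car9 was called without triCH1flox1 or without control line flox2_2, Ddit3 in the same 2 cases, and Ppp1r15a and Mthfd2 without flox2_2. Of the calls made, those of Egr2, Maff and Gadd45a were lost when any 1 of the triCH1 lines was left out, and those of Chac1 and Nupr1 without triCH1flox2_1 or triCH1flox2_2. Egr2, Maff and Nupr1 also lost theirs without control line flox1.

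Further genes of the highest 30 fall outside these groups. Prelid2 (1436194_at), a member of a family of mitochondrial lipid carriers, had 1142, 1447 and 1527 in hypoxia, against 254, 247 and 213 in normoxia (change 2.42 ± 0.18, adjusted p = 4.16e-06). Tnfsf9 (1422924_at), the ligand of the immune receptor 4-1BB, had 1179, 821 and 844 in hypoxia, against 325, 172 and 231 in normoxia (change 1.90 ± 0.21), and Clcn3 (1438366_x_at), a chloride and proton exchanger of endosomes, had 816, 668 and 601 in hypoxia, against 198, 118 and 193 in normoxia (change 1.93 ± 0.26). The remaining 3 were dimmer. Bend5, Gdap10 and Tmem74b rose by 2.22 ± 0.39, 2.03 ± 0.32 and 1.94 ± 0.36, and their highest hypoxia signals were 351.6, 345.1 and 200.3. Bend5 was not called without triCH1flox1 or triCH1flox2_2, Gdap10 without triCH1flox2_1 and Tmem74b without any 1 of the triCH1 lines. Of the 30 genes, 14 had a further tested probe set, of which 0 pointed the other way, and in 13 at least 1 further probe set was called higher too. Smtnl2 was the 1 called gene of 22 in the contractile group, where 1.05% of all tested genes were called higher. Other members such as Acta2 (0.22 ± 0.09) and Ccn2 (0.23 ± 0.08) were not called. Krt19 (1417156_at), an epithelial keratin gene, had 3643, 3019.7 and 3194 in hypoxia, against 989.9, 1542 and 1588 in normoxia (change 1.27 ± 0.19, adjusted p = 0.00225). The 10 epithelial markers summed to 3792.2 to 3961.8 in hypoxia and 1472.4 to 2723.7 in normoxia, of which Krt19 made up most. Krt18 had 102.8, 353.2 and 328.1 in hypoxia, against 118.7, 384.9 and 440.8 in normoxia. The dimmer Krt5 and Krt14 were also lower in hypoxia in each line, and Krt8 in triCH1flox1 and triCH1flox2_2 alone. Epcam, a defining marker, had 73.4, 94.4 and 143 in hypoxia, against 159, 142 and 289 in normoxia and was not called (−0.78 ± 0.27, adjusted p = 0.287). Cdh1 was higher in hypoxia in each line but dim, between 19.6 and 98.1 over the 6 arrays. In cultures measured in bulk, a larger number of cells of a type and more RNA per cell cannot be told apart.

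**Figure D3:**
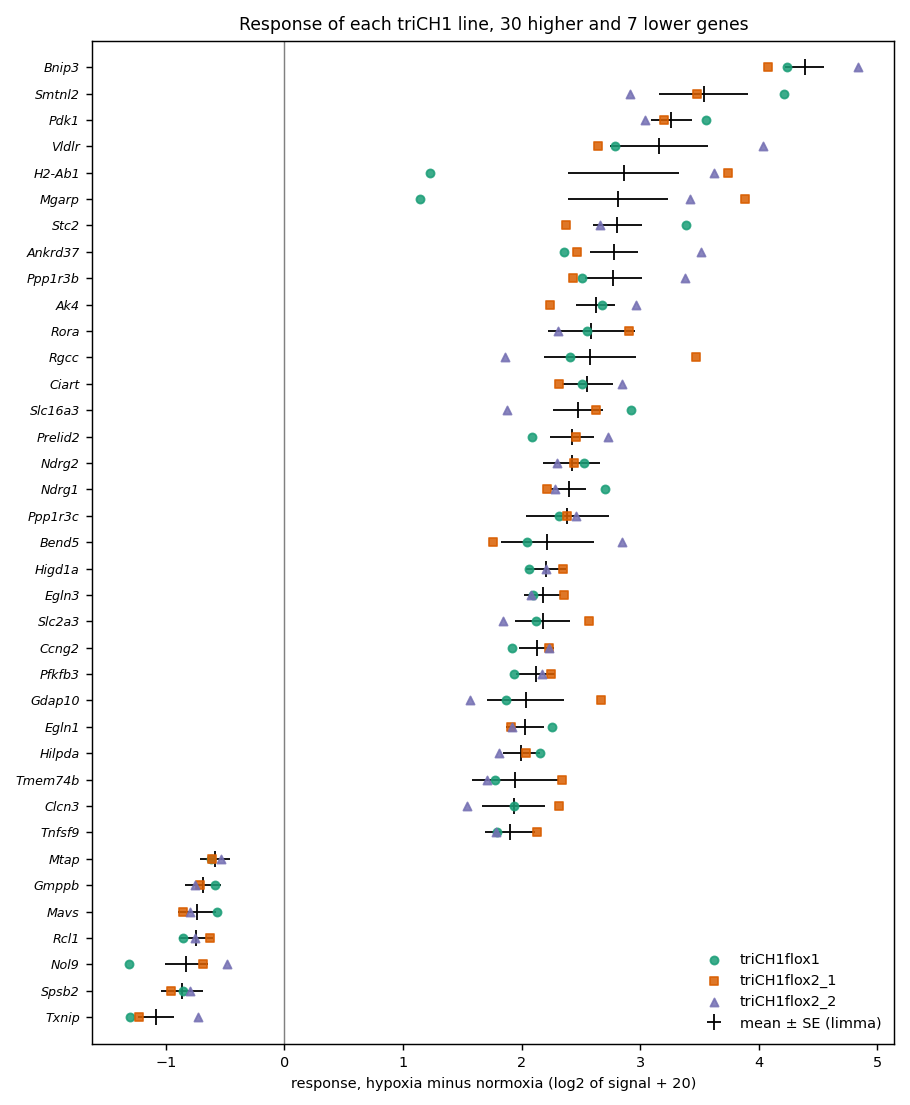
Response of each triCH1 line (coloured points, log2 of signal + 20, hypoxia minus normoxia) and the limma mean with its standard error (black) for the 30 genes with the highest change and the 7 lower genes among called genes whose arrays did not overlap. By this choice every line lies on the same side of 0 for every gene. For the probe sets shown of H2-Ab1 and Mgarp, triCH1flox1 lies far below the others.

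Of the few lower genes, Txnip fell furthest among those whose arrays did not overlap. Txnip (1415996_at), which encodes a protein that binds thioredoxin and restrains glucose uptake, had 1172, 824 and 922 in hypoxia, against 2919.6, 1952 and 1539 in normoxia (change −1.08 ± 0.15, adjusted p = 0.00117). A further probe set (1415997_at) was called lower as well, with 1039.9, 666 and 593 in hypoxia, against 2006, 1148 and 1236 in normoxia (change −0.91 ± 0.15). Txnip kept its call in all alternatives run. Its relatives in the thioredoxin, arrestin-domain and NRF2 group gave no other call among 16 tested genes. The shares over all tested genes were 1.05% higher and 0.0795% lower. Hmox1 (1448239_at), the haem oxygenase gene, had 0.55 ± 0.14 (adjusted p = 0.109). Without control line flox2_2 Hmox1 was called higher.

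The other lower genes without overlap of arrays changed by less than 2-fold and lay near the threshold. Nol9 (1455330_at), a kinase of ribosomal RNA processing, had 478, 742 and 677 in hypoxia, against 1215, 1203 and 958 in normoxia (change −0.83 ± 0.18, adjusted p = 0.0456). Rcl1 (1416730_at), which takes part in cleaving the ribosomal RNA precursor, had 788, 1002 and 923 in hypoxia, against 1442, 1555 and 1574 in normoxia (change −0.75 ± 0.15, adjusted p = 0.0224). Both belong to the group of RNA polymerase I and III and ribosome biogenesis, in which 2 of 33 tested genes were called lower, 0 higher and 24 had a negative change (median −0.23), against 0.0795% called lower and 55.5% negative over all tested genes. Polr1a (1417775_at) and Polr1b (1416126_at), the large subunits of RNA polymerase I, had −0.56 ± 0.17 and −0.54 ± 0.16 and were not called (adjusted p = 0.198 and 0.192). Polr3g (1449155_at), a subunit of RNA polymerase III, went the other way and was not called (0.93 ± 0.23, adjusted p = 0.0818). The 24 tested cytosolic ribosomal proteins had 0 called genes and a median of 0.07. Polr3g was called higher without control line flox2_1 or flox2_2.

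Spsb2 (1422106_a_at), a substrate adaptor of a ubiquitin ligase, had 285, 245 and 357 in hypoxia, against 531, 493 and 634 in normoxia (change −0.87 ± 0.18, adjusted p = 0.029). Mavs (1439185_x_at), the mitochondrial adaptor of antiviral RNA sensing, had 891, 553 and 628 in hypoxia, against 1329, 1014 and 1108 in normoxia (change −0.74 ± 0.16, adjusted p = 0.0456). Gmppb (1439030_at), which makes GDP-mannose for glycosylation, and Mtap (1424426_at), which salvages methionine and adenine from methylthioadenosine, fell by 0.68 ± 0.15 and 0.59 ± 0.12 (adjusted p = 0.0476 and 0.0376). Spsb2, Nol9, Rcl1, Mavs, Gmppb and Mtap each lost the call when any 1 of the triCH1 lines or control line flox1 was left out, and the other tested probe sets of Spsb2, Nol9, Mavs and Mtap pointed the same way without being called. The 3 called genes whose arrays overlapped, Nwd1, Rgs16 and Jpt1, are named after their values were seen. Nwd1 (1458353_at) had the largest negative change, with 30.2, 37.8 and 299.6 in hypoxia, against 406, 128 and 522 in normoxia (change −1.73 ± 0.34, adjusted p = 0.0224). Without triCH1flox1 it was not called.

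The lists of DNA replication and mitosis genes held no call, where 1.05% of all tested genes were called higher. Of the 33 tested genes of DNA replication 26 had a negative change (median −0.12), against 55.5% negative and a median of −0.03 over all tested genes, and the 29 mitosis genes had a median of 0.04. In the 14 tested cytokine and chemokine genes there was no call either. Ccl2 (1420380_at), a monocyte attractant, had 696, 653 and 963 in hypoxia, against 951, 1171 and 1654 in normoxia (change −0.68 ± 0.16, adjusted p = 0.075), and its arrays overlapped. Without control line flox2_2 Ccl2 was called lower.

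The 3 lines agreed in direction for the called genes and differed in the spread of their responses. The calls were made on these same responses, which favours such agreement. The SD of the response over all tested probe sets was 0.51 in triCH1flox1, 0.41 in triCH1flox2_1 and 0.43 in triCH1flox2_2. Probe sets at least 2-fold higher numbered 699, 341 and 266, and those at least 2-fold lower 313, 204 and 312, each in 1 line without a test. Over the 177 probe sets called higher the median change was 1.37, 1.34 and 1.25. Of these, 134, 125 and 119 were at least 2-fold higher, and 98 were so in all 3 lines. The response of triCH1flox1 was the highest of the 3 for 74 of the 177, that of triCH1flox2_1 for 60 and that of triCH1flox2_2 for 43. Between pairs of lines the responses correlated at r = 0.29, 0.241 and 0.316 over the 18903 probe sets, a description across probe sets of the same arrays, which are not independent. The line with a floxed Crebbp allele is 1 of the 3, so that the line and the floxed gene cannot be told apart.

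Most probe sets called higher in triCH1 lines were called higher in control lines too. By the same fit they had 229 probe sets called higher (1.21%) and 35 called lower (0.185%). Of the 177 called higher in triCH1 lines 150 were called higher in control lines too, which is 84.7% of the triCH1 calls and 65.5% of the control calls, and 2 probe sets were called lower in both. The difference between the responses, tested directly as triCH1 minus control, gave 0 called probe sets in limma's test. At an unadjusted p under 0.05 it had 302 probe sets (1.6%), 162 with a higher and 140 with a lower response in triCH1 lines, against 945 expected by chance. This count depends on the lines in the fit, with 2034 without control line flox2_2 and 200 without flox1, and 0 called probe sets in either case. The median difference was −0.14 over the probe sets called higher in triCH1 lines, of which 124 of 177 were negative, and 0.01 over all tested probe sets. Over the 229 called higher in control lines it was −0.25, with 203 negative. Each of these choices used 1 of the 2 responses that the difference is made of, so the 2 medians are descriptions.

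**Figure D4:**
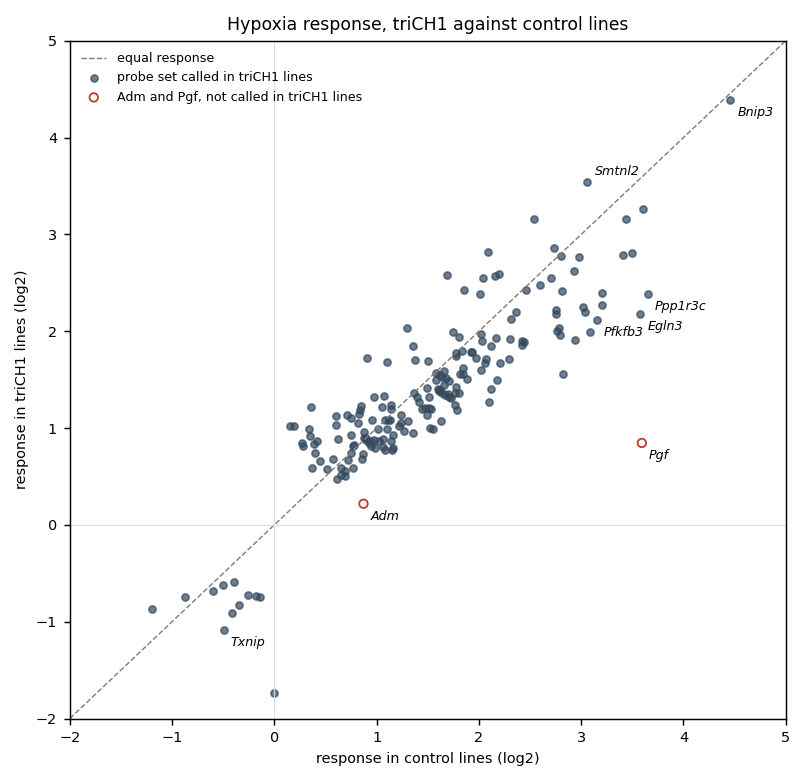
Response in triCH1 lines (vertical axis) against that in control lines (horizontal axis), both as log2 of signal + 20, for the 189 probe sets called in triCH1 lines, with Adm and Pgf added as open circles. Most points called higher lie below the dashed line of equal response, Bnip3 lies close to it, and Egln3, Pfkfb3, Adm and Pgf lie below it.

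The size of the difference varied between named genes. Bnip3 had 4.39 ± 0.17 in triCH1 and 4.46 ± 0.17 in control lines, a difference of −0.07 ± 0.23 (unadjusted p = 0.772). For Ppp1r3b the difference was −0.02 ± 0.34, for Prelid2 −0.04 ± 0.26, for Slc16a3 −0.12 ± 0.30 and for Stc1 −0.04 ± 0.31. The smallest p belonged to Egln3 (1418649_at), with 2.18 ± 0.15 in triCH1 and 3.58 ± 0.15 in control lines, a difference of −1.40 ± 0.22 (unadjusted p = 1.8e-05, adjusted p = 0.341). In control lines, in the order flox1, flox2_1 and flox2_2, Egln3 had 5388, 6799 and 5747 in hypoxia, against 446, 479.7 and 519 in normoxia. The 3 triCH1 hypoxia arrays, at 1780.1, 1028 and 1264, thus lay below all 3 control hypoxia arrays. In normoxia the triCH1 arrays also lay below the control arrays, by less. Pfkfb3 (1416432_at) had 2.12 ± 0.16 in triCH1 and 3.15 ± 0.16 in control lines (difference −1.03 ± 0.23). A second Ndrg1 probe set (1450977_s_at) had 1.99 ± 0.19 and 3.08 ± 0.19 (difference −1.09 ± 0.26). Ampd3, an AMP deaminase gene, had 0.41 ± 0.16 and 1.35 ± 0.16 (difference −0.94 ± 0.22), and Rps10 (1439374_x_at), a ribosomal protein gene, −0.55 ± 0.13 and 0.33 ± 0.13. For the last 4 the adjusted p of the difference was 1.

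Adm, Apln and Pgf were called in control lines and not in triCH1 lines, which does not by itself show a difference. Adm changed by 0.22 ± 0.11 in triCH1 and 0.87 ± 0.11 in control lines (difference −0.65 ± 0.16, unadjusted p = 0.00099). Apln had 0.66 ± 0.17 and 1.50 ± 0.17 (difference −0.84 ± 0.25, unadjusted p = 0.00456), and Pgf 0.85 ± 0.49 and 3.59 ± 0.49 (difference −2.75 ± 0.69, unadjusted p = 0.00144). In control lines Pgf had 728, 698 and 541 in hypoxia, against 80.9, 21.6 and 20.8 in normoxia. Apln was called in triCH1 lines without control line flox2_2 and with the 6 triCH1 arrays alone. In the angiogenic group 14 of 17 differences were negative, with 5 at an unadjusted p under 0.05, and in glycolysis 16 of 17 with 3, against 50.5% negative and 1.36% at that p over all tested genes. The respiratory chain, which was not called in either line type, had 31 of 38 negative differences with 0 at that p.

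The 5 genes with the smallest p for a higher response in triCH1 lines all missed the threshold in those lines. Fbxo36 had 0.94 ± 0.23 in triCH1 and −0.35 ± 0.23 in control lines, Cav3 0.78 ± 0.24 and −0.44 ± 0.24, Tgfbrap1 0.55 ± 0.22 and −0.47 ± 0.22, Ap5s1 0.26 ± 0.20 and −0.68 ± 0.20, and Dnajc11 0.02 ± 0.20 and −0.90 ± 0.20. The adjusted p of each of these differences was 1. Gadd45a had 1.21 ± 0.22 and 0.36 ± 0.22 (difference 0.86 ± 0.31, unadjusted p = 0.0143). Txnip was lower by 1.08 ± 0.15 in triCH1 and 0.50 ± 0.15 in control lines, where it was not called (adjusted p = 0.186; difference −0.59 ± 0.21, unadjusted p = 0.0152).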

How the data were processed

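Expression was measured on Affymetrix Mouse430_2 arrays (biotin, 1 colour), 1 per culture. Per the labels, the authors deposited linear intensities of probe sets from Affymetrix's Statistical algorithm, scaled to a target of 500. On each array the mean without the lowest and highest 2% of probe sets was 500. Of 45101 probe sets, 64 were manufacturer's controls and were left out. By the platform annotation 34945 had exactly 1 symbol, 932 several and 9160 none, and only the first kind was named.

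Intensities were taken as log2(signal + 20) with no further normalization, where the mean over the 12 arrays was at least 100 (18903 probe sets, 10059 genes). All 12 arrays entered 1 limma model (version 3.58.1, in R 4.3.3) with a mean per line, a hypoxia response per line type, 4 residual degrees of freedom and a trend in the prior variance. Pairing comes from the line names. After removal of group means, arrays of a line correlated at 0.54, 0.58 and 0.35 in triCH1flox1, triCH1flox2_1 and triCH1flox2_2, and at 0.47, 0.28 and −0.02 in flox1, flox2_1 and flox2_2. The step was tested on simulated data. The members, gene groups and naming rule were chosen with earlier results of these data known. Named genes are the 30 highest and up to 15 lowest called probe sets without overlap of arrays (1 per gene), up to 6 members of each of 26 groups (called ones first, then by p), the 5 smallest p of the difference in each direction, Crebbp, Ep300 and cell type markers. A gene among the highest or lowest is given by that probe set, and any other by its brightest. Of the listed symbols, 43 had no probe set with 1 symbol. The number of arrays limits the precision.

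The alternatives changed the pseudocount (1 or 100), the filter (none, or 200), the scaling (quantile or median), the variance trend, the robustness of the fit, the line block, the arrays in the fit, the probe sets per gene and the minimum change, or left out 1 line. Promoter sequences are RefSeq's (GRCm38.p6).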

Additional observations from a re-analysis of the deposited data

How the results depend on the processing

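The 177 probe sets called higher in triCH1 lines numbered 119 without the replicate block (arrays not paired by line), 280 with the 6 triCH1 arrays alone, 102 to 119 when 1 triCH1 line was left out and 162 to 338 when 1 control line was left out (338 without flox2_2, a choice made after seeing the data). The 12 called lower numbered 1 without the replicate block, 5 without the variance trend, 44 with the 6 triCH1 arrays alone, 2 at a minimum of 2-fold, 2 to 4 without 1 triCH1 line and 5 to 90 without 1 control line (28 without flox2_1, 5 without flox1, 90 without flox2_2). The difference between line types gave 0 calls in all settings run, with 131 (no replicate block) to 2034 (without flox2_2) probe sets at an unadjusted p under 0.05. Of the 71 called genes with values in the text, 39 kept the call under all alternatives, 32 lost it under at least 1 and 0 reversed. Of 37 named genes that were not called, 15 were called under at least 1, of which 14 without flox2_2. Bhlhe40 and Ddit4 were among those lost without the block. Genes dim in normoxia depend on the pseudocount. Over the alternatives Smtnl2 ranged from 1.90 to 5.17, Rgcc from 1.23 to 4.78, Ppp1r3c from 1.14 to 3.81 and Rora from 1.40 to 3.50. The changes that reversed were not called: Lox at −0.25 with 1 value per gene, and, as each triCH1 line was left out, Pdk4 from −0.20 to 0.51, Crebbp from −0.27 to 0.13 and Ep300 from −0.80 to 0.11. The causes were not tested.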
